A study of Rattus norvegicus with 15 samples.

Results

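The genes described here are 9 dual-specificity MAP kinase phosphatases, Dusp1, Dusp2, Dusp4, Dusp5, Dusp6, Dusp7, Dusp8, Dusp10 and Dusp16. They were taken by symbol from the 16832 genes of the count table, and all 9 were present and passed the filter on low counts. Dusp9, a further phosphatase of this kind, is not among them and is given with the lists below. RNA was sequenced from Odora, a rat cell line made from olfactory tissue, which the labels call an olfactory neuron and undifferentiated. Exposed cells had received zinc gluconate, a soluble zinc salt, at 200 µM for 6 h or at 100 µM for 6, 12 or 24 h, and the reference was untreated control cells, whose time in culture the labels do not give. Each of the 5 groups had 3 libraries of a single cell line. The labels do not say whether the 3 were grown apart. P-values thus reflect only how these libraries vary, and that variation may be technical.

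MAP kinases are switched on by phosphate groups on a threonine and a tyrosine, and these phosphatases switch them off by removing both. Dusp5, Dusp6 and Dusp7 prefer the growth-factor kinases ERK. Dusp8, Dusp10 and Dusp16 prefer the stress kinases JNK and p38, and the nuclear enzymes Dusp1, Dusp2 and Dusp4 act on several of these kinases. Many of the genes are themselves induced by the pathways they shut down, so they serve as feedback brakes. These preferences are known mainly from human and mouse enzymes.

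Several facts of the whole series bear on these values. Each library under the 24 h label had its nearest neighbour under the 200 µM label, which made 3 matched pairs. The chi-square per degree of freedom between paired libraries was 1.35 to 1.41, against 3.23 or more for other pairs under these labels and at least 3.45 inside the 3 remaining groups. The direct comparison of the 200 µM with the 24 h libraries called 0 of 10575 genes (0%) in edgeR, with 69 genes at an unadjusted p under 0.05. Both labels are therefore described as they stand, and neither is an independent repeat of the other. Heart muscle transcripts (Myh6, Myh7, Actc1, Myl2, Myl3 and Mybpc3 summed) were at 106, 26.7 and 107 CPM (read counts scaled to a library of fixed size) in the untreated libraries. Replicate 1 of the 100 µM 6 h group had 49.4 CPM, and they were at 0.156 to 0.608 CPM in the other 11. Of 9 markers of mature olfactory neurons 8 were in the table and 3 reached a mean of 1 CPM, and their sum was 24.6 to 33.5 CPM. Omp, which defines the mature neuron, was at most at 0.703 CPM, and Cnga2 and Rtp1 were at 0 in every library. The 5 of 6 markers of sustentacular and basal cells in the table summed to 12.1 to 17.2 CPM, nearly all of it Krt8, 7 of glia to 133 to 160 CPM and 7 of leukocytes to 14.97 to 22.75 CPM. Sox10, Gfap and Fabp7 of the glia list, and Ptprc, Aif1, Itgam and Cd3e of the leukocyte list, had means under 1 CPM. Ncam1, at 86.0 to 105 CPM, was the largest part of the glia sum. It is also in the list of immature olfactory neurons and was the largest part of that sum. The 9 markers of immature olfactory neurons summed to 114 to 131 CPM, with Gap43, Neurog1 and Stmn2 among those at 0 in every library. Mcl1, a survival gene that most cells use, was also listed at 0 in every library, so a listed 0 does not by itself show that a transcript was absent.

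The 7 fibroblast markers summed to 6367 to 9445 CPM, and single markers moved with the groups. Pdgfra was at 5.15 to 5.39 CPM in the 200 µM and 4.79 to 5.58 CPM in the 24 h libraries, against 17.3 to 27.9 CPM in untreated libraries. Lum was at 0.748 to 1.87 CPM and 0.973 to 1.99 CPM under these labels, against 6.89 to 18.9 CPM in untreated libraries, and Dcn at 0.249 to 0.859 CPM and 0.252 to 0.939 CPM, against 1.11 to 3.48 CPM. Col3a1 was at 1028 to 1500 CPM in the 200 µM and 1047 to 1448 CPM in the 24 h libraries, against 2180 to 3437 CPM in untreated libraries. These 4 were thus lower under both labels, while Thy1 was higher, at 806 to 996 CPM and 818 to 1009 CPM, against 561 to 648 CPM in untreated libraries. The remaining markers of the list overlapped the untreated libraries. Col1a1, the largest part of the sum, was at 3633 to 4463 CPM and 3448 to 4296 CPM, against 3342 to 4217 CPM. Col1a2 was at 916 to 1131 CPM and 922 to 1090 CPM, against 952 to 1092 CPM. The part of these markers in the results was not tested.

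All 9 phosphatase genes differed among the 5 groups in edgeR's quasi-likelihood test over all groups, as did 66.4% of all genes tested. In the libraries labelled 200 µM, 7 of the 9 rose against untreated cells and 2, Dusp6 and Dusp7, fell. The background was 29.4% of genes higher and 31.1% lower. Under the 24 h label the same 7 rose and the same 2 fell, where 29.7% of all genes were higher and 31.3% lower. After 6 h at 100 µM 3 of 9 rose (Dusp1, Dusp5 and Dusp7), against 9.10% of all genes higher and 8.10% lower. After 12 h 1 of 9, Dusp5, rose, against 3.36% of genes higher and 2.97% lower. Of the genes called against untreated cells 48.55% were higher at 200 µM, 48.74% at 24 h, 53.06% at 12 h and 52.89% at 6 h. With unscaled library totals these shares were 16.03%, 16.23%, 34.16% and 42.16%, and all 9 members kept their direction and call at 200 µM and 24 h. The median log2 ratio to untreated cells was 1.72 over the 9 members in the 200 µM libraries (-0.02 over all genes), 1.57 under the 24 h label (-0.02), 0.29 after 6 h (0.0022) and -0.04 after 12 h (0.0014). In bulk RNA a change in the share of cells that express a gene and a change in RNA per cell cannot be told apart.

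**Figure D1:**
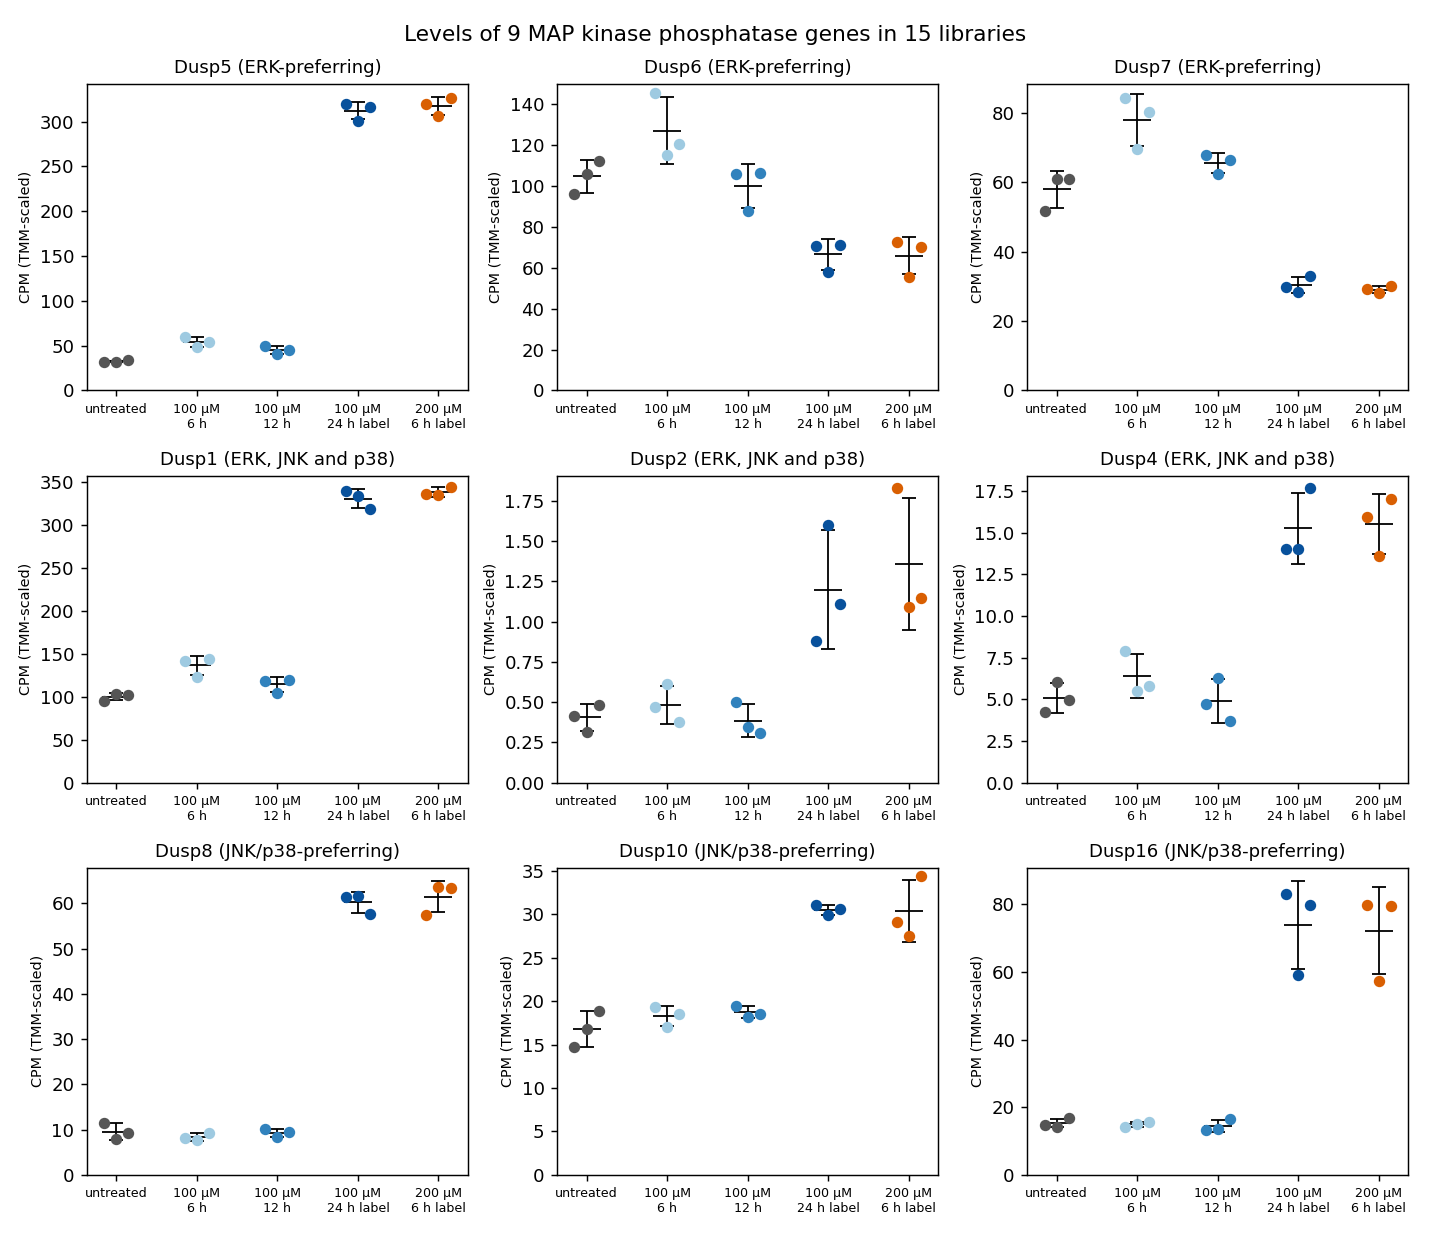
Level of each phosphatase gene in every library, in CPM scaled by TMM (vertical axes start at 0 and differ between panels), for untreated cells and the 4 zinc groups. Points are libraries in the order of replicates 1 to 3, with mean and SD drawn in black. Dusp6 and Dusp7 were lowest under the 24 h and 200 µM labels, and the other 7 genes were highest there.

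Promoter windows are shown for 4 members whose RNA moved in opposite directions, Dusp5 and Dusp1, which rose, and Dusp6 and Dusp7, which fell. The sequences are RefSeq's for assembly GRCr8, 250 bases before to 50 after the start of the gene, read on the gene's strand from 5′ to 3′, and 8 of the 9 members had one. Capitals mark letters that match a searched motif on either strand.
Dusp5, chr1:262543524-262543823, plus strand: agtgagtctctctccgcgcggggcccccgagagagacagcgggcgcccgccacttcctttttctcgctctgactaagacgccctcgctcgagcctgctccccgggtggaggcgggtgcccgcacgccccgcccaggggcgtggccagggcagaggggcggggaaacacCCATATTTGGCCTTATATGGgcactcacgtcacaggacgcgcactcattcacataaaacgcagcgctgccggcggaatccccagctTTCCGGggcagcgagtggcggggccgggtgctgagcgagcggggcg
Dusp1, chr10:17184603-17184902, plus strand: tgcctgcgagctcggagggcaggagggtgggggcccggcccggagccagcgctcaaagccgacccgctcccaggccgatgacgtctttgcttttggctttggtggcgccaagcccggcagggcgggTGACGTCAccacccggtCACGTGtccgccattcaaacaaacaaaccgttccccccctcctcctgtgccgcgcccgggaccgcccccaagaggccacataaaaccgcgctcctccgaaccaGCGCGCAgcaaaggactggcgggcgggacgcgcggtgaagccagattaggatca
Dusp6, chr7:35979354-35979653, plus strand: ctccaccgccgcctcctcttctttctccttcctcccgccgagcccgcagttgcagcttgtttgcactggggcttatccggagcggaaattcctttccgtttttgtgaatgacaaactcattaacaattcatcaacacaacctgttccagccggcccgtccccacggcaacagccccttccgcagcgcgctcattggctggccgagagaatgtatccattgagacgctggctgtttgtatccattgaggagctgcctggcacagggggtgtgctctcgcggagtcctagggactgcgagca
Dusp7, chr8:115887841-115888140, plus strand: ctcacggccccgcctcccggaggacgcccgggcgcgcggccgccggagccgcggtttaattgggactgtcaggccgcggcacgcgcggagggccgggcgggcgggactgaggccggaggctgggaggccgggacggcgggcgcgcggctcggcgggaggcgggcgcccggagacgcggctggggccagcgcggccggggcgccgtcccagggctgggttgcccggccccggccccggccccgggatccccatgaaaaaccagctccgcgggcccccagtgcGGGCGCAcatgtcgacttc

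The Dusp5 window held 2 serum response elements of the CArG type side by side, CCATATTTGG at -82 and CCTTATATGG at -72 from the gene's start. A CArG box was in 1.64% of all 27457 windows and in 1 of the 8 members' windows. Such boxes are known as binding sites of the serum response factor, which works with ERK-activated partners. The Dusp1 window held the cyclic AMP response element TGACGTCA at -124, found in 1.91% of all windows and in 1 of 8 members', and an E-box, CACGTG, at -107, which 6.65% of windows and 2 of 8 members' windows, those of Dusp1 and Dusp2, held. The metal response core TGCGCNC, read on the minus strand, was at -4 in Dusp1 and at 32 in Dusp7, and was in 4125 of the 27457 windows. The ETS core CCGGAA was in the Dusp5 window at 5, on the minus strand, and in 15.8% of all windows. No match in the 8 windows was found for TGCACNC (12.2% of all windows), the AP-1 letters TGANTCA (7.33%), the antioxidant core TGACNNNGC (12.2%), the heat shock element (0.736%) or TATAAA (14.3%). The matches in these windows did not overlap each other, and none lay in the Dusp6 window. A match describes letters in a window and is no evidence of binding.

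Dusp5, the nuclear phosphatase that binds and inactivates ERK, had the highest ratio of the 9. It had 319, 306 and 326.5 CPM in the 200 µM libraries, against 32.1, 32.0 and 33.5 CPM in untreated libraries. The groups were far apart, a 9.74-fold rise with a log2 ratio of 3.29 ± 0.08 (SE, edgeR adjusted p = 1.24e-16). At 100 µM it had 59.9, 48.9 and 54.0 CPM after 6 h, 49.1, 40.7 and 45.0 CPM after 12 h and 319, 301 and 316 CPM under the 24 h label. All of these exposed libraries lay above every untreated one. Dusp5 rose by 0.75 ± 0.08 on the log2 scale after 6 h (edgeR adjusted p = 1.94e-06) and by 0.46 ± 0.08 after 12 h (0.00153). It was the only member that passed in all 4 comparisons with untreated cells.

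Dusp6, an ERK phosphatase of the cytoplasm and a textbook feedback inhibitor of growth-factor signalling, went the other way. It had 72.4, 55.4 and 70.1 CPM in the 200 µM libraries, against 95.9, 105.9 and 112 CPM in untreated libraries. The groups did not overlap, and the log2 ratio was -0.67 ± 0.12 (edgeR adjusted p = 1.01e-04). At 100 µM it had 145.5, 115 and 120.4 CPM after 6 h, 105.8, 87.5 and 106.5 CPM after 12 h and 70.6, 57.9 and 71.0 CPM under the 24 h label. After 6 h every library was above the untreated ones, yet the ratio of 0.29 ± 0.11 missed the threshold in edgeR (adjusted p = 0.0938). In 10 of 13 alternatives it did not pass either, among them DESeq2 (0.29 ± 0.12, adjusted p = 0.0721) and unscaled totals (0.25 ± 0.12, edgeR adjusted p = 0.148). Leaving out 1 library gave 0.17 to 0.35, without a pass. Dusp6 passed at 0.27 ± 0.08 with the replicate number as a block (edgeR adjusted p = 0.0191). It also passed at 0.28 ± 0.09 when only these 6 libraries were fitted (0.0475). A term for heart transcripts, added after seeing the data, gave 0.47 ± 0.14, which passed too (0.0449). With that term the falls against untreated cells shrank to -0.36 ± 0.19 in the 200 µM and -0.35 ± 0.19 in the 24 h libraries and no longer passed (edgeR adjusted p = 0.148 and 0.159). The term is estimated only from replicate 1 against replicates 2 and 3 of 6 h at 100 µM.

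Dusp7, the closest relative of Dusp6 in this group and also an ERK phosphatase of the cytoplasm, had 29.2, 27.9 and 30.1 CPM in the 200 µM libraries, against 51.9, 61.0 and 61.0 CPM in untreated libraries. It fell to 0.502 times the untreated level, a log2 ratio of -0.99 ± 0.09 (edgeR adjusted p = 1.26e-08). At 100 µM it had 84.2, 69.7 and 80.3 CPM after 6 h, 67.8, 62.4 and 66.6 CPM after 12 h and 29.9, 28.3 and 32.9 CPM under the 24 h label. Dusp7 had risen after 6 h by 0.43 ± 0.08 on the log2 scale (edgeR adjusted p = 9.98e-04). After 12 h its libraries were all above the untreated ones, at a log2 ratio of 0.18 ± 0.08 that did not pass (edgeR adjusted p = 0.225). Thus Dusp7 rose under 6 h at 100 µM and fell under both the 24 h and the 200 µM label. Its fall kept its call with the heart transcript term, at -0.83 in the 200 µM and -0.77 in the 24 h libraries.

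**Figure D2:**
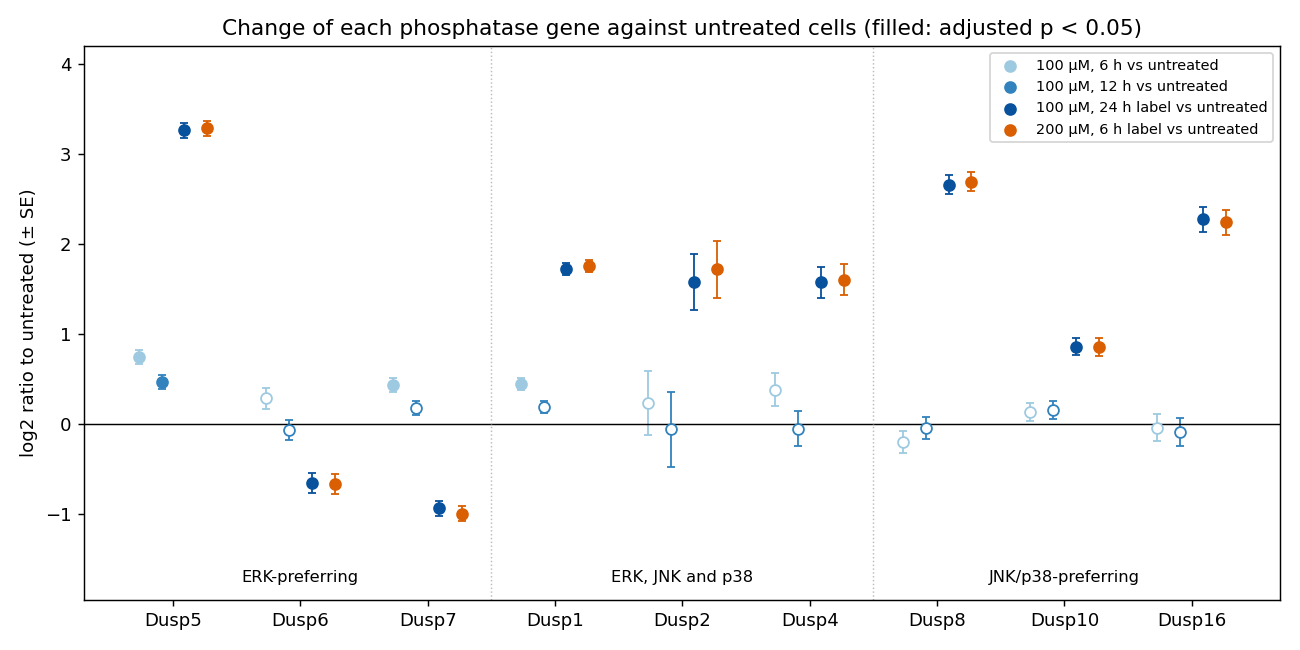
Log2 ratio of each gene to untreated cells with its standard error, for 6, 12 and 24 h at 100 µM and for 6 h at 200 µM, in 3 blocks by the kinases the enzymes prefer. Filled points passed an adjusted p of 0.05 in edgeR. Of the ERK-preferring genes Dusp5 stood at 3.29 in the 200 µM libraries while Dusp6 and Dusp7 stood at -0.67 and -0.99.

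Among the nuclear enzymes of broader range, Dusp1, an early response gene whose product acts on p38 and JNK as well as ERK, rose in 3 of the 4 comparisons with untreated cells. It had 336, 335 and 345 CPM in the 200 µM libraries, against 95.3, 103 and 102 CPM in untreated libraries, and rose 3.38-fold (1.76 ± 0.07, edgeR adjusted p = 1.83e-13). At 100 µM it had 142, 123 and 144.5 CPM after 6 h, 119, 104.8 and 119.7 CPM after 12 h and 340.2, 333.5 and 318 CPM under the 24 h label. Its rise after 6 h was 0.45 ± 0.07 (edgeR adjusted p = 1.89e-04). After 12 h the libraries still lay above the untreated ones, by 0.19 ± 0.07, which did not pass (adjusted p = 0.119).

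Dusp4, a nuclear relative of Dusp1, had 15.96, 13.6 and 17.1 CPM in the 200 µM libraries, against 4.22, 6.05 and 4.99 CPM in untreated libraries. Its rise of 1.61 ± 0.17 (edgeR adjusted p = 2.66e-07) was clear of the spread, whereas the 6 h and 12 h libraries at 100 µM, at 3.71 to 7.91 CPM, overlapped the untreated ones. Dusp2, best known from lymphocytes, was near the floor of detection, with 14 to 22 reads per library at 200 µM and 10 to 14 in untreated libraries. It had 1.83, 1.09 and 1.15 CPM in the 200 µM libraries, against 0.414, 0.317 and 0.485 CPM in untreated libraries, and rose by 1.72 ± 0.32 (edgeR adjusted p = 1.25e-04). Under the 24 h label it had 0.882, 1.60 and 1.11 CPM and rose by 1.57 ± 0.31 (edgeR adjusted p = 2.33e-04). Once heart transcripts entered the fit it no longer passed (1.52 ± 0.63, adjusted p = 0.0673).

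The JNK and p38 phosphatases did not pass after 6 h or 12 h at 100 µM and rose under both other labels. Dusp8, a phosphatase of JNK and p38, had 57.5, 63.6 and 63.4 CPM in the 200 µM libraries, against 11.5, 7.89 and 9.32 CPM in untreated libraries. It rose 6.46-fold (2.69 ± 0.11, edgeR adjusted p = 1.65e-13), the second highest ratio of the 9. Its libraries at 6 h and 12 h, between 7.66 and 10.05 CPM, overlapped the untreated ones.

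Dusp16, a phosphatase that favours JNK, had 79.7, 57.4 and 79.5 CPM in the 200 µM libraries, against 14.8, 14.3 and 16.7 CPM in untreated libraries. It rose 4.73-fold (2.24 ± 0.14, edgeR adjusted p = 3.91e-10). Replicate 2 was the lowest library of its group under both the 200 µM and the 24 h label (59.1 CPM, beside 83.2 and 79.8 CPM), and these replicates 2 are 1 of the matched pairs. At 6 h and 12 h it was at 13.3 to 16.6 CPM, within or next to the untreated range. Dusp10, a phosphatase of p38 and JNK, had 29.1, 27.6 and 34.4 CPM in the 200 µM libraries, against 14.7, 16.8 and 18.9 CPM in untreated libraries. Its rise of 0.86 ± 0.10 (edgeR adjusted p = 3.74e-07) was the smallest of the 7. At 6 h and 12 h it lay at 17.1 to 19.5 CPM, with ratios of 0.13 ± 0.10 and 0.16 ± 0.10 that did not pass (edgeR adjusted p = 0.375 and 0.406).

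Under the 24 h label the ratios to untreated cells were close to those at 200 µM. Dusp5 rose by 3.26 ± 0.08, Dusp8 by 2.66 ± 0.11, Dusp16 by 2.28 ± 0.14, Dusp1 by 1.72 ± 0.07, Dusp4 by 1.57 ± 0.17 and Dusp10 by 0.86 ± 0.10. Dusp6 and Dusp7 were at -0.66 ± 0.12 and -0.94 ± 0.08, and all of these passed in edgeR with adjusted p of 1.05e-04 or less. Between the 200 µM and the 24 h libraries 0 of the 9 members passed in edgeR or DESeq2 and 0 had an unadjusted p under 0.05, with log2 differences from -0.06 (Dusp7) to 0.14 (Dusp2). With each pair of matched libraries summed, as 1 group of 3, the ratios to untreated cells were 3.27 for Dusp5, -0.66 for Dusp6 and -0.96 for Dusp7, and all 9 members passed.

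By their labels the 200 µM and 100 µM libraries of 6 h differ in dose, but since the 200 µM libraries are matched with those of the 24 h label, dose and time cannot be told apart here. In that comparison 7 members were higher and 2 lower at 200 µM, where 26.5% of all genes were higher and 27.1% lower. Dusp8 differed by 2.89 ± 0.11, Dusp5 by 2.54 ± 0.08, Dusp16 by 2.28 ± 0.15, Dusp2 by 1.49 ± 0.33 and Dusp1 by 1.31 ± 0.07. Dusp4 differed by 1.22 ± 0.18 and Dusp10 by 0.72 ± 0.10, while Dusp6 was at -0.95 ± 0.12 and Dusp7 at -1.43 ± 0.09. The largest adjusted p among the 9 in edgeR was 9.28e-04, for Dusp2. After 6 h at 100 µM the means of Dusp6 and Dusp7 were above those of untreated cells. That difference passed for Dusp7 but not for Dusp6 (edgeR adjusted p = 9.98e-04 and 0.0938). The ratios of both genes at 200 µM were thus lower against those libraries than against untreated ones.

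Along the time series at 100 µM 12 h was set against 6 h. The test called 0 of 9 members in edgeR, against 0.974% of all genes, with 5 members at an unadjusted p under 0.05. DESeq2 called 2 of the members and 195 of all genes. The log2 ratio of 12 h to 6 h was below 0 for 7 of the 9, with a median of -0.26 over the members and 0.0043 over all genes. Dusp6 was at -0.35 ± 0.11 (edgeR adjusted p = 0.202), Dusp5 at -0.28 ± 0.08 (0.108), Dusp7 and Dusp1 both at -0.26 (0.182 and 0.103). In Dusp6, Dusp7 and Dusp1 the 12 h libraries all lay under the 6 h ones. How many of all genes had such a gap, or an unadjusted p under 0.05, was not counted, so neither sets the members apart from other genes. Dusp5 and Dusp1 did pass in DESeq2 and without replicate 2 of 6 h, which was the lowest of its group in Dusp1, Dusp5, Dusp6 and Dusp7, and Dusp1, Dusp5 and Dusp6 passed with the replicate number as a block. From 12 h to the 24 h label, 7 members were higher and 2 lower at 24 h, where 26.9% of all genes were higher and 27.6% lower. Dusp5 differed by 2.80 ± 0.08, Dusp8 by 2.70 ± 0.12, Dusp16 by 2.36 ± 0.15 and Dusp7 by -1.11 ± 0.09, with Dusp6 at -0.59 ± 0.12 (edgeR adjusted p = 4.17e-04).

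The order of the 5 groups was sorted, by means and tests together, into 3 shapes among the 9 genes. For Dusp5 and Dusp1 the 200 µM and 24 h libraries were highest, next to each other without a difference, then 6 h, 12 h and untreated cells, with 6 h and 12 h not separated by the test. The 12 h and untreated groups were separated for Dusp5 but not for Dusp1 (edgeR adjusted p = 0.00153 and 0.119). For Dusp6 and Dusp7 the 6 h mean was highest and the 24 h and 200 µM libraries lowest. The test separated 6 h from untreated cells for Dusp7 but not for Dusp6 (edgeR adjusted p = 9.98e-04 and 0.0938). It separated 12 h from neither untreated cells nor 6 h for these 2 genes. The 12 h mean was under the untreated one for Dusp6 (99.9 and 104.6 CPM) and above it for Dusp7 (65.6 and 57.95 CPM). For Dusp2, Dusp4, Dusp8, Dusp10 and Dusp16 the untreated, 6 h and 12 h groups were not separated by the test and the other 2 groups lay above them.

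Other genes of the same pathways were read from lists, under TMM scaling only, and their ratios, rises and falls are log2 values. Each count below is to be read against the shares of all genes, 29.4% higher and 31.1% lower at 200 µM, 29.7% and 31.3% under the 24 h label, 9.10% and 8.10% after 6 h and 3.36% and 2.97% after 12 h. Among 12 other phosphatases of MAP kinases 10 were tested, and 4 were higher and 3 lower in the 200 µM libraries than in untreated cells (3 and 3 under the 24 h label). The list's median log2 ratio was 0.27. Ppm1b and Ppm1a, metal-dependent serine and threonine phosphatases, rose by 0.85 ± 0.08 and 0.55 ± 0.06, and Ppm1d, a stress-induced one, fell by 0.72 on the log2 scale. Dusp9, an ERK phosphatase akin to Dusp6 and Dusp7, was at 2.37 ± 0.162 CPM in the 200 µM and 1.74 ± 0.123 CPM in the untreated libraries (SD, n = 3 each), with a log2 ratio of 0.45 ± 0.23 that did not pass. Of 14 atypical dual-specificity phosphatases, small enzymes without the kinase-binding domain, 9 were tested, and 2 were higher and 1 lower at 200 µM (3 and 1 under the 24 h label). The median was 0.09. Dusp3, Dusp14, Dusp22 and Dusp26 stand in both of these lists, so the rise of Dusp14 is counted in each. Dusp14 rose in all 4 comparisons, by 0.71 ± 0.14 after 6 h, 0.53 ± 0.15 after 12 h, 0.69 ± 0.14 under the 24 h label and 0.87 ± 0.15 at 200 µM. Dusp11, which acts on RNA, rose by 0.71 ± 0.08 at 200 µM, and Dusp12 fell by 0.40. The fall of Dusp12 was 0.52 under the 24 h label, where Dusp11 rose by 0.69 ± 0.07.

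The kinases came next. Of 15 tested genes of the ERK cascade 6 rose and 3 fell at 200 µM and 6 rose and 2 fell under the 24 h label, with medians of -0.0059 and -0.0036. Shc1, an adaptor that links receptors to Ras, rose by 0.74 ± 0.06 at 200 µM, Map2k1, which activates ERK, by 0.55 ± 0.07, and Rps6ka2, a kinase that ERK activates, by 0.54 ± 0.10. Mapk3, which encodes an ERK kinase, did not pass (-0.04 ± 0.10). After 6 h at 100 µM 3 of the 15 rose, Hras by 0.39 ± 0.09, Rps6ka2 by 0.39 ± 0.09 and Map2k1 by 0.25 ± 0.07, and after 12 h 2 rose, Map2k1 by 0.27 ± 0.07 and Hras by 0.32 ± 0.09.

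Of 18 tested genes of the JNK and p38 cascades 3 rose and 9 fell at 200 µM (3 and 8 under the 24 h label), with a median of -0.17 under both labels. The 12 of 18 called at 200 µM compare with 29.4% of all genes higher and 31.1% lower. Map2k3, which activates p38, rose by 1.00 ± 0.07 at 200 µM, and had risen by 0.47 ± 0.07 after 6 h and 0.33 ± 0.07 after 12 h at 100 µM. Map3k4, an upstream kinase, was at -0.97 ± 0.08 and Mapk14, the main p38 gene, at -0.42 ± 0.06, and both fell. Of the JNK genes Mapk9 fell slightly (-0.21 ± 0.07) and Mapk8 (-0.06 ± 0.14) did not pass. After 6 h 2 of 18 rose, Map2k3 and Map3k11 (0.21 ± 0.07), and after 12 h 1 of 18, Map2k3.

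**Figure D3:**
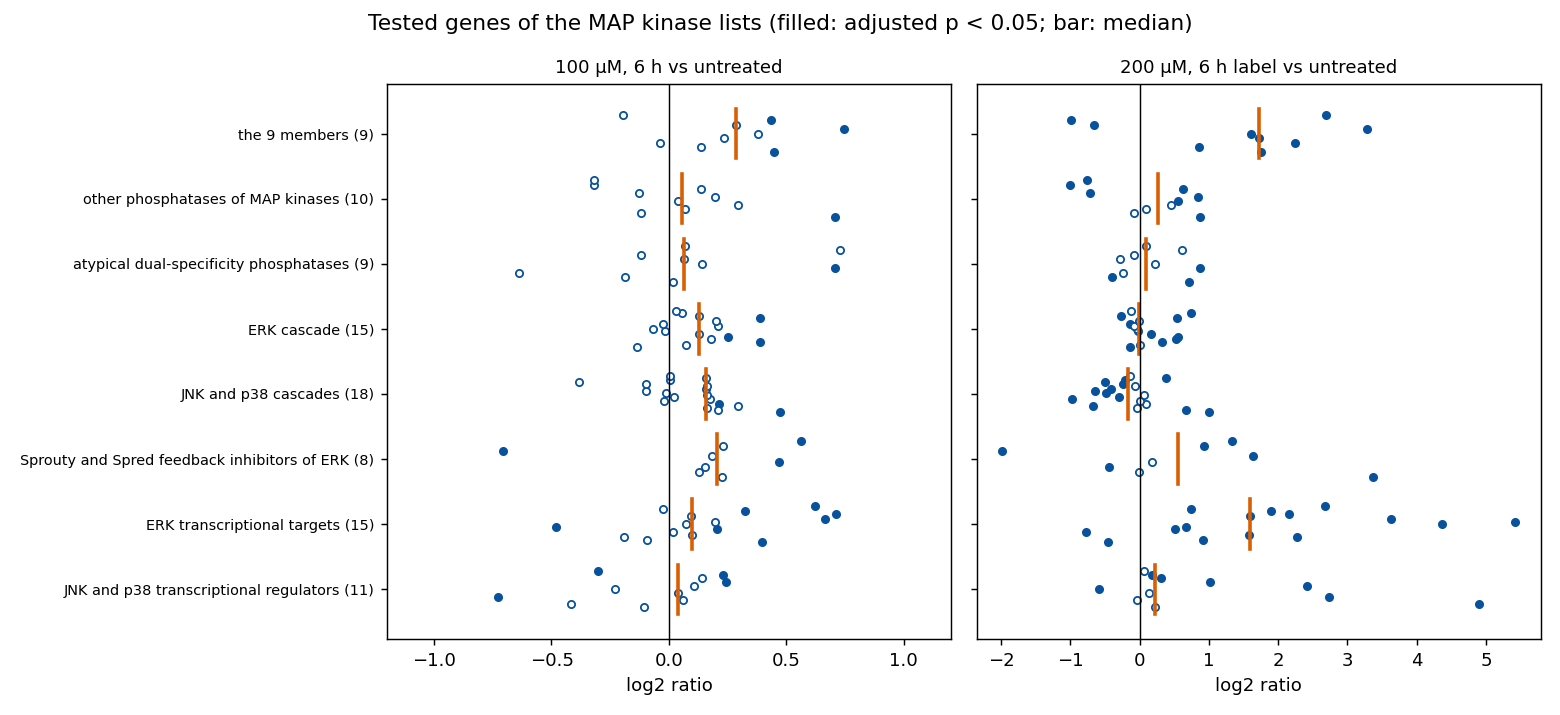
Log2 ratios to untreated cells of each tested gene of the 9 members and of 7 lists of MAP kinase genes, after 6 h at 100 µM (left) and in the 200 µM libraries (right); the horizontal scales differ. Filled points passed an adjusted p of 0.05 in edgeR, bars are medians and numbers in parentheses are genes tested. In the 200 µM libraries the medians of the 9 members and of the ERK target list were 1.72 and 1.59, and that of the JNK and p38 cascades was -0.17.

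Feedback inhibitors of ERK other than phosphatases formed another list. Of 8 tested Sprouty, Spred and related genes 4 rose and 2 fell at 200 µM, 5 rose and 2 fell under the 24 h label, with a median of 0.55 at 200 µM. Errfi1, an inhibitor of the EGF receptor, had 346 ± 23.0 CPM in the 200 µM libraries and 33.7 ± 3.73 CPM in untreated ones (SD, n = 3 each), a log2 ratio of 3.36 ± 0.10. Spred3 rose by 1.63 ± 0.11, Spry4 by 1.33 ± 0.12 and Spry2 by 0.93 ± 0.09, whereas Spry1 was at -1.98 ± 0.26. After 6 h at 100 µM Spry4 (0.56 ± 0.13) and Spred2 (0.47 ± 0.08) rose and Spry1 fell (-0.71 ± 0.20). After 12 h 0 of the 8 passed in edgeR or DESeq2, with 2 at an unadjusted p under 0.05.

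Genes that ERK signalling is known to induce were read as a list of 16, of which 15 were tested. Under both the 200 µM and the 24 h label 13 of them rose and 2 fell, with medians of 1.59 and 1.58. Fosb, Fos and Fosl1, subunits of the AP-1 transcription factor, had log2 ratios of 5.42 ± 0.14, 4.36 ± 0.13 and 3.63 ± 0.10 at 200 µM. Those of Egr1, Egr2 and Egr3, early growth response factors, were 0.92 ± 0.11, 2.27 ± 0.16 and 1.58 ± 0.23. Ccnd1, cyclin D, was at -0.46 ± 0.07 and was 1 of those that fell. After 6 h at 100 µM 6 rose and 1, Etv5, fell (-0.48 ± 0.07). Those that rose include Ier3 at 0.71 ± 0.08 and Fosl1 at 0.66 ± 0.10. After 12 h Ccnd1 rose by 0.37 ± 0.07 and Etv5 was at -0.32 ± 0.07.

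Of 11 tested transcription regulators tied to JNK and p38, 6 rose and 1 fell under both labels, with a median of 0.21 at 200 µM. Atf3, a stress-induced factor, rose by 4.91 ± 0.15 at 200 µM, Ddit3, which is also induced by stress, by 2.74 ± 0.13, and Jun, the classical JNK substrate, by 2.42 ± 0.07. After 6 h at 100 µM 2 rose and 2 fell, with Ddit3 at -0.73 ± 0.13, Trp53, the p53 gene, at -0.30 ± 0.08 and Srf, the serum response factor, at 0.23 ± 0.07. After 12 h Jund rose by 0.33 ± 0.08, and Ddit3 (-0.53 ± 0.13) and Elk4, a partner of Srf (-0.32 ± 0.09), fell.

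Over the 15 libraries, the log2 CPM of Dusp5 was most like that of Hspb8, a small heat shock protein, Plaur, the urokinase receptor, and Srxn1, which repairs oxidised peroxiredoxins, each with Pearson's r of 0.998. Dusp8 was most like Cdkn1a, a cell cycle inhibitor (0.998), Bcl2l1, a survival factor (0.997), and Btg2, an antiproliferative gene (0.997). Dusp1 was most like Dusp5, Srxn1 and Hspa8, a chaperone, each at 0.997. These libraries fall into 2 sets, the 6 of the 24 h and 200 µM labels and the other 9, and all values share library depth, so these r describe that step between the sets.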

How the data were processed

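RNA of undifferentiated Odora cells was sequenced in 15 libraries, 3 in each of 5 groups, and the authors deposited whole-number read counts per rat gene and did not normalize them. Tools listed, without roles, per the submitters' processing notes were TopHat, bcl2fastq, DESeq and CASAVA 1.8, with rn4 as build. No source used here gives the read counter, its annotation or its strand setting. Reads that overlapping or similar genes share could be split between them in an unknown way. Gene IDs were matched to RefSeq symbols of assembly GRCr8, for names only: 16671 of 16832 matched, and the 161 unmatched IDs stayed in library totals and tests. No column of values was left out.

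Counts were fitted with edgeR 4.0.16 (R 4.3.3; robust quasi-likelihood F test, TMM scaling, group as the only factor, all 15 libraries). The filterByExpr rule removed 6257 genes and left 10575, the set for Benjamini-Hochberg adjustment (threshold 0.05). Levels are CPM of TMM-scaled totals, with SD over 3 libraries. A standard error is the log2 ratio divided by the square root of F. Ratios, rises and falls given with a standard error are on the log2 scale. The functions were tested on simulated counts with known changes.

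Total counts were 10.3 to 35.2 M per library. The floor of detection, set at 3 counts, was 0.0853 to 0.290 CPM, for counting error only. Alternatives were DESeq2 1.42.0, DESeq2 size factors, unscaled totals, no filter, only the 6 libraries of a comparison, a replicate block, each library left out, and fits without the libraries of the other of the 24 h and 200 µM labels. A term for heart transcripts and sums of matched libraries were added after seeing the data.

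The 9 members and all lists were chosen with earlier results of these data known. All members are named. From each list the rule names up to 3 genes with the smallest adjusted p under 0.05 in each comparison with untreated cells, and 3 genes are named for likeness to each of the 3 members with the smallest adjusted p in the test over 5 groups. Mapk3, Mapk8, Mapk9, Dusp9, Egr1, Egr2, Egr3, Spry2, Mcl1, Dusp3, Dusp22 and Dusp26 were named after their values were seen. The replicate numbers did not deviate together in every pair of any comparison, so they were not read as pairs. In the comparisons with untreated cells, Pearson's r of the deviations from group means was 0.213 to 0.36 for replicate 2. For replicates 1 and 3 it was 0.092 to 0.143 and -0.06 to 0.069. Replicate 2 thus shared part of its deviation between groups, and the replicate block is given as an alternative. Some results are not reported here.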

Additional observations from a re-analysis of the deposited data

Results flagged for a closer look

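The levels of members differed between groups labelled with different times or doses in a direct test (edgeR, adjusted p under 0.05). It called all 9 genes in each of 2 comparisons. Of all genes 26.9% were higher and 27.6% lower in the first comparison below, and 26.5% and 27.1% in the second. Between the 24 h label and 12 h at 100 µM the log2 differences were 2.80 for Dusp5, 2.70 for Dusp8, 2.36 for Dusp16, 1.63 for Dusp2, 1.62 for Dusp4, 1.53 for Dusp1, 0.70 for Dusp10, -0.59 for Dusp6 and -1.11 for Dusp7. Between 200 µM and 100 µM at 6 h they were 2.89 for Dusp8, 2.54 for Dusp5, 2.28 for Dusp16, 1.49 for Dusp2, 1.31 for Dusp1, 1.22 for Dusp4, 0.72 for Dusp10, -0.95 for Dusp6 and -1.43 for Dusp7. The libraries of the 24 h and 200 µM labels lie in matched pairs, so these results are not independent of each other, and what the labels say of dose and time cannot be told apart for them.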

How the results depend on the processing

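In 4 comparisons (24 h and 200 µM against untreated cells, 24 h against 12 h, and 200 µM against 100 µM), 501 of 504 values of a member under an alternative kept their direction and their side of the threshold, and 0 were reversed. The other 3 came from the heart transcript term, chosen after seeing the data: Dusp6 in both comparisons with untreated cells and Dusp2 under the 24 h label, as given above. Under unscaled library totals the median log2 ratio of all genes to untreated cells was -0.40 under both labels. With that shift not taken off, Dusp5 was at 2.91, Dusp10 at 0.48, Dusp6 at -1.04 and Dusp7 at -1.37 in the 200 µM libraries. Under TMM scaling these 4 were at 3.29, 0.86, -0.67 and -0.99. Between 12 h and 6 h, where edgeR called 0 members, DESeq2 called 2 and the replicate block 3, and leaving out 1 library gave 0 to 2; the cause was not tested. Over the comparisons with untreated cells the replicate block ended no call of a member and added that of Dusp6 after 6 h.

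Log2 ratios near 0 changed sign when 1 library was left out. These were, for 12 h against untreated cells, Dusp8 (-0.17 to 0.10), Dusp4 (-0.27 to 0.11), Dusp2 (-0.292 to 0.093) and Dusp6 (-0.125 to 0.021), for 6 h against untreated cells Dusp16 (-0.087 to 0.031), and for 12 h against 6 h Dusp10 (-0.02 to 0.07) and Dusp16 (-0.154 to 0.0064). With the heart transcript term the 12 h ratios of Dusp6 and Dusp4 were 0.24 and 0.44. None of these passed. The count of all genes called moved by over 1.5 times in some fits. After 6 h it was 1819, or 1026 to 1210 without control replicate 1 or 6 h replicate 1 or 3, and 933 with the heart transcript term. After 12 h it was 669, or 269 to 438 without control replicate 1 or any 12 h library, 1165 with the block and 50 with that term. Between 12 h and 6 h it was 103, or 195 in DESeq2, 223 with the block or in the 6 libraries alone, 51 with the term and as few as 50 without 1 library. With the term it was 3898 at 200 µM (6402) and 3880 at 24 h (6449). Dusp2 is limited by depth, at 4 to 29 reads per library.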
